A study of Mus musculus with 11 samples.

Results

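Divergent promoter pairs are places where 2 protein-coding genes start head to head on opposite strands and run away from each other. Of 22281 protein-coding starts of an mm9 gene annotation that remained after histone genes were left out, 1570 starts (7.05%) had their nearest protein-coding start on the opposite strand upstream within 1000 bases. They formed 776 reciprocal pairs, and the other 18 starts had a partner whose own nearest opposite start was another gene. The remaining 20711 starts are called other starts here. The 68 histone starts, and 1 start whose partner was a histone gene, entered neither set.

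The study expressed 11 proteins, each fused to the integrase-binding domain (IBD) of LEDGF, in LEDGF-/- mouse embryonic fibroblasts of strain C57BL/6, and read out where HIV then integrated. LEDGF tethers HIV integrase to chromatin through this domain, so in cells without LEDGF the site of integration serves as a surrogate for where the fused protein sits (HITseq). The plasmids were electroporated, the virus was added 24 h later and cells grew for 3 more days. There was 1 library for each protein. The NELF group held NELFA, NELFB, NELFCD and NELFE (n = 4), the Integrator group held INTS11, INTS9, INTS3, NABP1, NABP2 and INIP (n = 6), and SPT5 stood alone (n = 1). All cells lacked LEDGF. A control library with the domain alone was not used here, and no value below has a background subtracted. Subunits of a group stand in for replicates, and every p-value between groups measures the spread between fused proteins, not between cultures.

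The depth of a library is its number of distinct integration sites, which ranged from 18753 (NELFE) to 197069 (INTS9), with 831994 in all. Windows of 2 kb around the divergent starts held 10875 of them. Read names put the 4 NELF libraries on 1 flow cell whose name no other library carried, so complex and flow cell cannot be told apart. All entries of INTS11 and part of those of INTS9 named their flow cell only as FC, so it is not known for them. SPT5 was alone on another instrument and flow cell, so protein and run cannot be told apart for SPT5 either. As a check of the cell label, the fibroblast markers Vim, Col1a1, Col1a2, Thy1 and Col3a1 held integration at 26.1, 14.3, 5.77, 4.25 and 1.21 times uniform density (mean of 11 libraries). The blood markers Ptprc and Cd3e were at 0.578 and 0.247 times and the hepatocyte markers Alb and Apoa1 at 0.273 and 2.09 times, although integration is not expression.

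At most active mammalian promoters RNA polymerase II starts in both directions, and it pauses a short way into the gene. NELF (negative elongation factor) and SPT5, a subunit of DSIF, hold the paused polymerase. Integrator cleaves nascent RNA through its subunits INTS9 and INTS11 and shares INTS3 with the SOSS complex, which binds single-stranded DNA through NABP1 or NABP2 together with INIP. Most libraries of the Integrator group used here are thus of SOSS subunits, namely INTS3, NABP1, NABP2 and INIP. At a divergent pair both directions lead into a protein-coding gene, and such pairs are known to be common among DNA repair and mitochondrial genes and to lie mostly in CpG islands.

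The stretches between the starts were short. The median distance was 137 bases, the quartiles were 71 and 271 bases, and 78.9% of the pairs lay at most 300 bases apart. The sequences below are the mm9 plus strand from the minus-strand gene's start to the plus-strand gene's start, taken from the mm9 genome. The first 6 are those pairs among the 10 with the highest mean of sites per 100000 sites of a library whose starts lie at most 300 bases apart, and Med22-Rpl7a is a pair that differed between the groups. Capitals mark motif matches on either strand. The motifs found here were the CCAAT box, the GC box, which reads GGGCGG, an NRF1 motif, which reads GCGCATGC, and CCGGAAG as an ETS motif.
Actg1-0610009L18Rik, chr11:120209856-120209992: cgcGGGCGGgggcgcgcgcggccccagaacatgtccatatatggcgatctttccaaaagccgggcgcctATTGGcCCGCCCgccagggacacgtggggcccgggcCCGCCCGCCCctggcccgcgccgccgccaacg
Mphosph9-2810006K23Rik, chr5:124777981-124778098: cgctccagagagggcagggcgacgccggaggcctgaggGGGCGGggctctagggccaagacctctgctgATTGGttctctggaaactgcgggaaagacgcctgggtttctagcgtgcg
Srsf7-Ttc39d, chr17:80606629-80606800: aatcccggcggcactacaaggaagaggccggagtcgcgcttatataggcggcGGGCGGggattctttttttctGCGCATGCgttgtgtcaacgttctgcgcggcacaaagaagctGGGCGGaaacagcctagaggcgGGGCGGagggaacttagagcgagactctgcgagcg
Ddx5-Ccdc45, chr11:106650499-106650566: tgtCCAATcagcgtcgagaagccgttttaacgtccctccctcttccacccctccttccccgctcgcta
Mrps18b-Ppp1r10, chr17:36053334-36053379: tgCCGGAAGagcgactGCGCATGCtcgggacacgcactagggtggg
Mllt11-Cdc42se1, chr3:95032599-95032654: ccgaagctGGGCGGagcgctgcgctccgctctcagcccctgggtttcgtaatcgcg
Med22-Rpl7a, chr2:26766197-26766284: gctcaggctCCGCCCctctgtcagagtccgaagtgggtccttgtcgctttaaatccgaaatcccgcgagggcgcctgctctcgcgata

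These stretches were rich in G and C. The 137 bases between Actg1 and 0610009L18Rik were 76.6% GC with 21 CpG dinucleotides, and the 68 bases between Ddx5 and Ccdc45 were 58.8% GC with 6. Over all divergent starts, the 250 bases before to 50 bases after the start had a median GC content of 63.0% (quartiles 57.3% and 68.0%), beside 54.3% (46.7% and 62.7%) at other starts. The median ratio of observed to expected CpG was 0.851 at divergent and 0.489 at other starts. A start was called CpG-rich where that ratio was at least 0.6 and GC at least 50%: this held for 1313 divergent starts (83.6%) and 8062 other starts (38.9%).

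In the same windows, searched on both strands, the TATA box was rarer and the ETS and YY1 motifs were more frequent at divergent starts, also beside other CpG-rich starts. TATAAA, the TATA box, was in 3.38% of divergent and 14.1% of other starts, and in 4.94% of other CpG-rich starts. GGGCGG was in 68.8% of divergent, 41.5% of other and 76.6% of other CpG-rich starts. The ETS motif CCGGAAG was in 28.3% of divergent starts, 9.47% of other starts and 17.8% of other CpG-rich starts. AAGATGGC, a YY1 motif, was in 8.34%, 2.92% and 4.18% of the same 3 sets. GCGCATGC was in 6.88%, 3.04% and 6.14%, and CCAAT in 41.8%, 37.5% and 36.0%. CpG-rich divergent starts alone, the like set for other CpG-rich starts, had 2.28% for TATAAA, 74.5% for GGGCGG and 31.7% for CCGGAAG. They had 9.14% for AAGATGGC, 7.54% for GCGCATGC and 42.1% for CCAAT. Over all starts the shares were 13.4% for TATAAA, 43.5% for GGGCGG, 10.8% for CCGGAAG, 3.29% for AAGATGGC, 3.30% for GCGCATGC and 37.9% for CCAAT. The windows of a pair's starts overlap, so these shares are descriptions and carry no test.

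The first comparison asked how much of each library fell near divergent pairs. The 2 kb windows cover 0.124% of the genome. NELFA had 1.83% of its sites there, NELFB 2.38%, NELFCD 2.15% and NELFE 1.18%. SPT5 had 2.92%, above each of the other 10 libraries. INTS11 had 0.769%, INTS9 0.789%, INIP 0.606%, INTS3 1.09%, NABP1 1.16% and NABP2 0.999%. Exact binomial (Clopper-Pearson) 95% intervals, which cover counting error only, ran from 1.03% to 1.34% for NELFE and from 1.11% to 1.20% for NABP1, so these neighbours in the order overlapped, while NELFB (2.22% to 2.56%) and SPT5 (2.81% to 3.04%) did not. The NELF mean was 1.89% ± 0.52 (SD, n = 4) and the Integrator mean 0.902% ± 0.214 (SD, n = 6), and the groups differed (p = 0.00476, the smallest that the 210 assignments of the family labels allow; adjusted p = 0.0190, exact two-sided permutation test, Benjamini-Hochberg over 8 tests). With entries of the instrument shared by both groups only, 5 Integrator libraries were left, with a mean of 0.771%, and the difference remained (adjusted p = 0.0317, exact permutation test).

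Windows around divergent starts were hit more densely, per kb, than windows around other starts in every library. Sites per kb within 2 kb of divergent starts, over sites per kb within 2 kb of other starts, gave a ratio of 1.87 in NELFA, 2.18 in NELFB, 2.07 in NELFCD, 1.75 in NELFE and 2.50 in SPT5. Among the Integrator group the ratio was 1.72 in INTS11, 1.78 in INTS9, 2.23 in INIP, 1.99 in INTS3, 1.997 in NABP1 and 2.02 in NABP2. The mean was 2.01 ± 0.23 (SD, n = 11), above 1 in 11 of 11 libraries (p = 0.000977, the smallest that 2048 sign flips allow; adjusted p = 0.00130 over 4 tests, exact two-sided sign-flip permutation test). The starts are the same in all libraries, so this p speaks for these fused proteins and not for other starts. Windows of a pair overlap, so the 1570 divergent starts share 3271.6 kb, while the 20711 other starts have 79901.2 kb. Divergent windows thus hold more starts per kb, and part of this ratio and of its p is fixed by the rule.

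CpG content moved with this ratio, and in both CpG strata the windows of divergent starts also held the partner's start. Among CpG-rich starts alone it fell to 1.19 ± 0.15 (SD, n = 11; 1.04 to 1.53), still above 1 in 11 of 11 libraries (adjusted p = 0.00130 over 4 tests, exact sign-flip permutation test). Among starts that were not CpG-rich, 257 divergent and 12649 other, it was 3.37 ± 0.76 (2.37 to 4.88). In the first 1 kb on the gene's own side of the start, away from the partner, the ratio was 1.83 ± 0.24 over all starts (adjusted p = 0.00130, exact sign-flip permutation test). For CpG-rich starts alone this downstream ratio was 1.13 ± 0.19, above 1 in 9 of 11 libraries, with NELFA at 0.983 and INTS11 at 0.909 (adjusted p = 0.0225, exact sign-flip permutation test). Transcription of the genes was not measured, and its part in the ratio was not tested.

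Over all starts, neither ratio was shown to differ between the groups. The divergent-over-other ratio was 1.97 ± 0.19 in NELF (SD, n = 4) and 1.95 ± 0.19 in Integrator (SD, n = 6), with p = 0.905 by an exact permutation test. The downstream ratio was 1.79 ± 0.17 in NELF and 1.81 ± 0.28 in Integrator (p = 0.971, exact permutation test). Among starts that were not CpG-rich the divergent-over-other ratio was 3.74 ± 0.50 in NELF (3.02 to 4.15) and 2.87 ± 0.38 in Integrator (2.37 to 3.21), which did not pass after adjustment (p = 0.0381, adjusted p = 0.0762 over 8 tests within CpG strata, added after the data had been seen; exact permutation test). Among CpG-rich starts it was 1.13 ± 0.08 and 1.19 ± 0.17 (adjusted p = 0.767, exact permutation test). NELF libraries also had more of their sites near other starts, 16.4% to 26.8% beside 6.64% to 14.1% in the Integrator group.

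**Figure D1:**
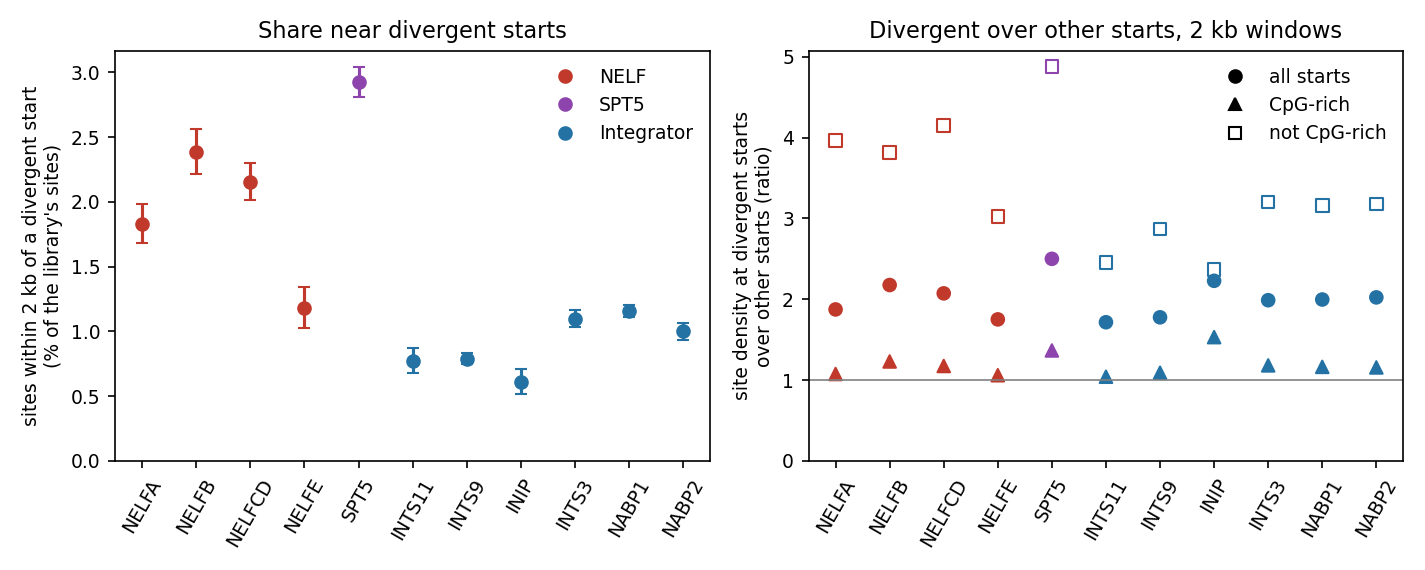
Left, percent of each library's distinct sites within 2 kb of a divergent start, with 95% exact binomial intervals; right, site density (sites per kb) at divergent over other starts for all starts (circles), CpG-rich starts (triangles) and starts not CpG-rich (open squares), 1 point per library, with a line at 1. SPT5 at 2.92% is the highest share, and the ratio falls from a mean of 2.01 over all starts to 1.19 among CpG-rich starts.

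In the profile around the start, the densest downstream bin lay nearer the start in NELF and SPT5 than in each Integrator library except INIP. In bins of 200 bases, NELFA, NELFB, NELFCD and NELFE each had their densest downstream bin 200 to 400 bases into the gene, at 31.3, 48.9, 43.2 and 15.2 times uniform density. SPT5 had its densest bin at 0 to 200 bases, at 47.5 times. Integrator libraries were lower and broader: the densest downstream bin lay at 200 to 400 bases in INIP (8.10 times), 400 to 600 in INTS9 (9.25) and NABP1 (12.7), 800 to 1000 in INTS11 (10.4) and INTS3 (11.2), and 1200 to 1400 in NABP2 (10.1). INIP's bin held 24 sites, so its position is loosely fixed. At other starts each NELF library also had its densest downstream bin within 400 bases, and each Integrator library beyond 600 bases. The difference in position was thus not particular to divergent starts.

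A second crest lay upstream, mostly over the partner gene. Both starts of a pair enter the profile, so this crest largely counts the partner's downstream sites again. It is not a result apart from the downstream crest. In widely spaced pairs the same bins can lie between the starts. In NELFA and NELFB it was at 200 to 400 bases upstream, with 28.8 and 45.1 times uniform density, and in NELFCD and NELFE at 400 to 600 bases, with 40.1 and 15.7 times. SPT5 reached 42.5 times at 200 to 400 bases upstream. Other starts also had an upstream crest without an annotated protein-coding partner within the limit: the NELF libraries reached 8.15 to 18.2 times there, and 15.1 to 35.9 times at other CpG-rich starts.

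**Figure D2:**
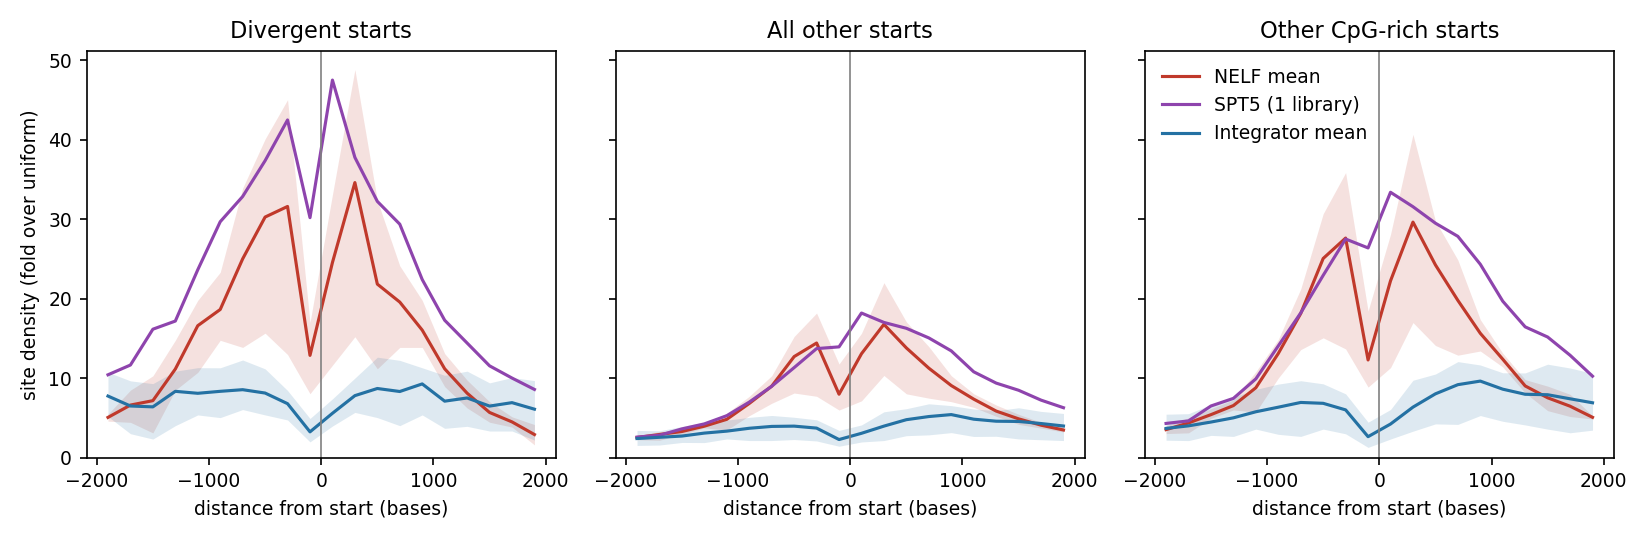
Site density (fold over uniform, bins of 200 bases) by distance from the start, negative upstream, at divergent, all other and other CpG-rich starts; lines are the NELF mean (n = 4), SPT5 (1 library) and the Integrator mean (n = 6), and shading runs from the lowest to the highest library. NELF and SPT5 show a crest on either side of divergent starts with a dip just upstream of the start, and Integrator lies lower and flatter. Both starts of a pair enter the profile, so the upstream crest at divergent starts largely repeats the partner's downstream sites.

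Sites of the NELF libraries lay closer to the start. The median distance of the sites in the first 2 kb downstream was 601 bases in NELFA, 480.5 in NELFB, 474 in NELFCD and 680 in NELFE. SPT5 lay at 586 bases. The Integrator libraries lay at 853.5 (INTS11), 864 (INTS9), 818 (INIP), 1023 (INTS3), 908 (NABP1) and 1150 bases (NABP2), so the groups did not overlap. The NELF mean was 559 ± 99.7 and the Integrator mean 936 ± 127 bases (SD; p = 0.00476, adjusted p = 0.0190, exact permutation test). At other starts the groups did not overlap either, with medians of 559 to 754.5 bases in NELF and 885 to 1160 in Integrator. The gap between the groups was thus not particular to divergent starts. In each of the 11 libraries the median was shorter at divergent than at other starts, by 10 (NABP2) to 145 bases (INIP), a mean difference of -74.5 ± 42.2 bases (SD, n = 11; adjusted p = 0.00130, exact sign-flip permutation test). This measure was added after the data had been seen.

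Symmetry around the start was measured as the share of sites within 1 kb that lay upstream. Both starts of a pair were counted. A site near a pair can thus count as downstream of its own gene's start and again as upstream of the partner's start. The share at divergent starts is therefore drawn toward an even split by the rule. It is also not independent of the distances given above. At divergent starts the share was 51.5% in NELFA, 49.96% in NELFB, 50.2% in NELFCD, 49.8% in NELFE and 50.5% in SPT5. It was 47.9% in INTS11, 47.3% in INTS9, 48.9% in INIP, 45.3% in INTS3, 47.2% in NABP1 and 45.1% in NABP2. Each NELF library thus lay above each Integrator library. The means were 50.4% ± 0.76 and 47.0% ± 1.45 (SD; p = 0.00952, adjusted p = 0.0254, exact permutation test). Without NELFA the adjusted p was 0.0952 by the same exact permutation test. At other starts the means were 44.6% ± 2.30 and 44.1% ± 2.24 (p = 0.733, exact permutation test). CpG strata of the other starts went opposite ways: CpG-rich ones had 46.5% ± 2.21 in NELF and 43.3% ± 3.01 in Integrator (adjusted p = 0.146), and those not CpG-rich 40.0% ± 3.17 and 45.2% ± 2.09 (adjusted p = 0.0635; exact permutation tests, 8 within strata). The gap at other CpG-rich starts, 3.19 points, was about that at CpG-rich divergent starts, 3.43 points (adjusted p = 0.0381, exact permutation test), so the difference in symmetry was not shown to be particular to divergent starts.

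The share was higher at divergent than at other starts by 4.56 ± 3.38 percentage points (SD, n = 11), above 0 in 10 of 11 libraries, with INTS3 at -2.34 (adjusted p = 0.00391, exact sign-flip permutation test). The rule places a gene upstream of every divergent start, so part of this difference is fixed by the rule. It was 8.91 points within 2 kb of the start and 3.05 points among CpG-rich starts. The difference was 5.80 ± 1.92 points in NELF and 2.87 ± 3.27 in Integrator, which an exact permutation test chosen after the data had been seen did not separate (p = 0.167). Among CpG-rich starts it was 2.80 ± 1.65 and 2.56 ± 3.83 points (adjusted p = 0.871, exact permutation test), and among starts not CpG-rich 16.5 ± 3.16 and 7.94 ± 4.12 points (adjusted p = 0.0635, exact permutation test).

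The stretch between the starts was then set against the first 1 kb of both gene sides, in the 485 pairs with at least 100 bases between starts. Sites per kb between the starts, over sites per kb on the gene sides, was 1.05 in NELFA, 0.770 in NELFB, 0.816 in NELFCD, 0.811 in NELFE and 0.849 in SPT5. The Integrator libraries had 0.743 (INTS11), 0.626 (INTS9), 0.597 (INIP), 0.507 (INTS3), 0.573 (NABP1) and 0.383 (NABP2), each below each NELF library. The means were 0.863 ± 0.130 and 0.571 ± 0.121 (SD; p = 0.0143, adjusted p = 0.0286, exact permutation test on log2 ratios). The counts behind these ratios were small, from 5 sites between the starts in INIP and 12 in NELFE to 135 in SPT5.

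The call was lost in 3 settings. Without NELFA the adjusted p was 0.0952, with starts taken over protein-coding transcripts it was 0.0571, and with pairs at most 500 bases apart it was 0.0762, each by the same exact permutation test, while the NELF mean stayed the higher one. In the pairs at most 500 bases apart the means were 0.424 ± 0.141 and 0.221 ± 0.092. With gene sides of 2 kb they were 1.33 ± 0.21 and 0.638 ± 0.203. At other starts, the first 200 bases upstream over the first 1 kb downstream gave 0.653 ± 0.231 in NELF and 0.513 ± 0.130 in Integrator (p = 0.295, exact permutation test; added after the data had been seen). Among other CpG-rich starts the means were 0.579 ± 0.219 and 0.350 ± 0.130, a 1.66-fold difference (p = 0.0714, exact permutation test), and over 2 kb downstream of all other starts the fold was 1.75 (p = 0.0524, exact permutation test). With matched windows, the fold was 1.25 at all other starts beside 1.53 between the starts of pairs, and 1.75 beside 2.16 over 2 kb. The 1.66 at other CpG-rich starts has no matched value for pairs. These folds were not tested against each other, so the difference was not shown to be particular to divergent pairs.

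**Figure D3:**
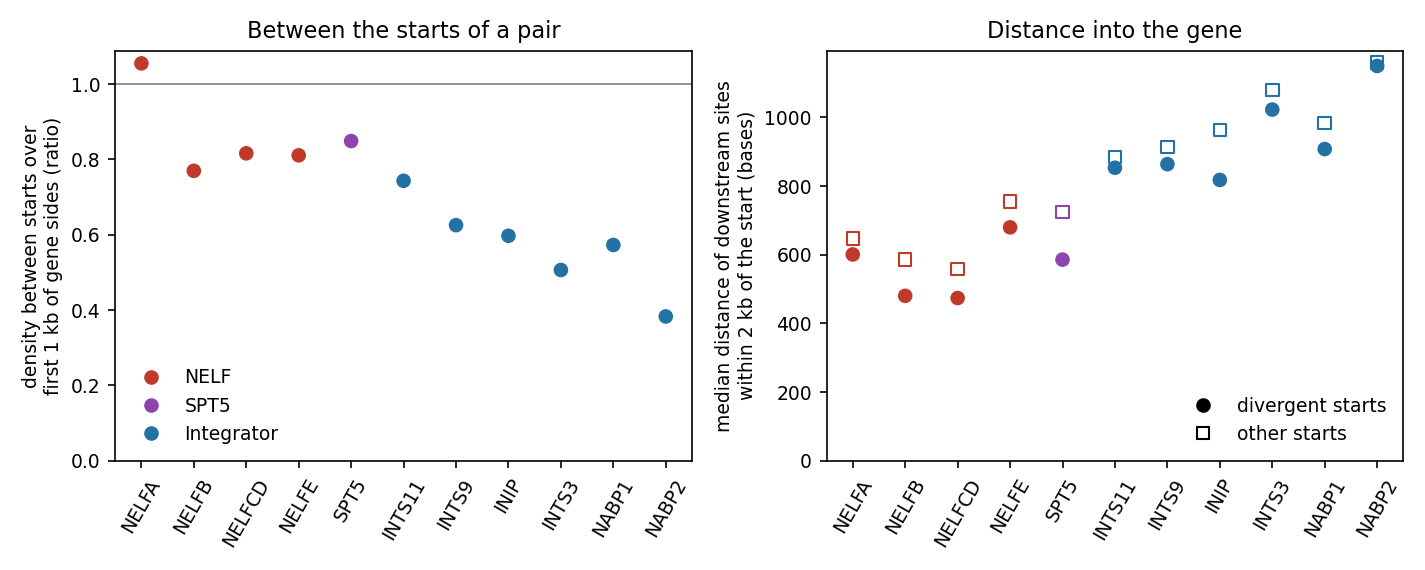
Left, sites per kb between the starts of a pair over sites per kb in the first 1 kb of both gene sides, with a line at 1; right, median distance in bases of the sites in the first 2 kb downstream, at divergent (filled) and other starts (open), 1 point per library. The 4 NELF libraries lie above the 6 Integrator libraries on the left, from 0.770 to 1.05 against 0.383 to 0.743, and below them on the right.

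Density between the starts differed with how far apart they were. In the 164 pairs 301 to 1000 bases apart it was 29.5 ± 10.1 times uniform in NELF, 39.2 in SPT5 and 6.60 ± 2.39 in Integrator (SD), close to the gene sides of the same pairs at 23.0 ± 10.02, 35.6 and 7.51 ± 2.10 times. In the 319 pairs 101 to 300 bases apart it was 7.73 ± 3.96, 15.2 and 1.39 ± 1.35 times, while the gene sides were at 24.98 ± 6.34, 35.3 and 8.20 ± 1.46 times. The levels between the starts of these pairs rest on few sites, 19 in NELF, 27 in SPT5 and 18 in Integrator. In the 293 pairs at most 100 bases apart the 4 NELF libraries together held 8 sites between the starts, and so did the 6 Integrator libraries, too few to read a level. Sites per pair differed less with spacing: per 100000 sites of a library, NELF had 2.14 ± 0.77, 2.45 ± 0.51 and 2.88 ± 0.89 sites per pair from the closest to the widest class, and Integrator 1.14 ± 0.29, 1.15 ± 0.24 and 1.21 ± 0.33. These classes are descriptions and were not tested.

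**Figure D4:**
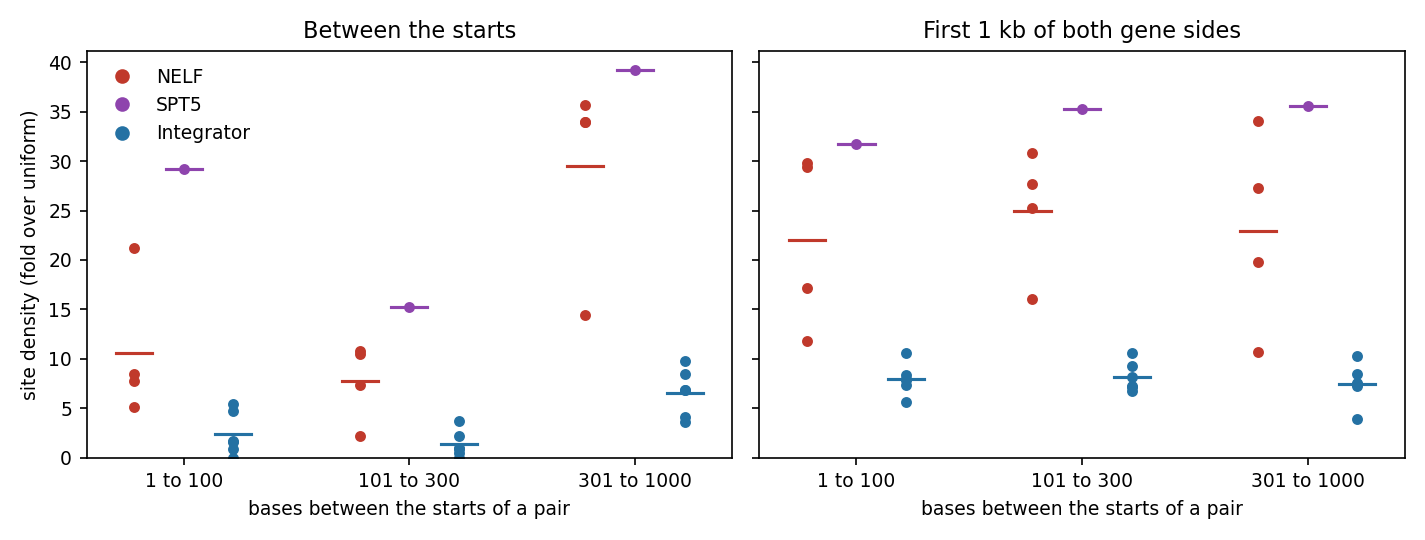
Site density (fold over uniform) between the starts and in the first 1 kb of both gene sides, for pairs 1 to 100, 101 to 300 and 301 to 1000 bases apart; each point is a library and each bar the group's mean. Between the starts, the NELF mean is 7.73 times at 101 to 300 bases (19 sites) and 29.5 times at 301 to 1000 bases (127 sites). On the gene sides the NELF mean is 24.98 and 23.0 times.

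Over the 11 libraries neither side of a pair was favoured on average. Here the sites in the first 2 kb of both gene sides were counted, without those between the starts. The plus-strand gene's side held 49.9% ± 1.504 of them (SD, n = 11; p = 0.787, exact sign-flip permutation test), and the longer gene's side 49.8% ± 2.79 (p = 0.966, exact sign-flip permutation test; both added after the data had been seen). NELFE stood apart with 41.8% of its sites on the longer gene's side (exact binomial 95% interval 35.0% to 48.8%), while the other 10 libraries ranged from 48.6% to 51.9%. Single pairs were often lopsided. In 27 pairs with at least 10 NELF and 10 Integrator sites, all pair sites were split at the midpoint between the starts. The plus side held from 5.56% to 94.4% of the NELF sites. In 16 of the 25 pairs where NELF favoured a side Integrator favoured the same one. Spearman's correlation of the shares across the 27 pairs was 0.317, given as a description. Rnf5-Agpat1 had 17 of its 18 NELF sites and all 32 of its Integrator sites on the side of Agpat1, an enzyme of phosphatidic acid synthesis. Ddx5-Ccdc45 had 17 of its 18 NELF sites on the side of Ddx5, an RNA helicase, but only 10 of 23 Integrator sites. Rnf5-Agpat1 and Ddx5-Ccdc45 were picked here for their shares.

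Sites were spread over most pairs. A pair had a median of 11 sites over all libraries (quartiles 6 and 18), 28 pairs had none, and the 78 pairs with the most sites held 29.9% of all sites in pair windows. Only 6 pairs had a site in all 11 libraries. At the edge of the rule, Btf3l4-Txndc12 and Pdzd7-Sfxn3 (both 987 bases apart) had 39 and 26 sites, and the nearest pairs outside, Nacc1-Trmt1 (1004), Serpina7-4930513O06Rik (1007) and Atg14-Gm6616 (1008), had 25, 0 and 2.

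The pair with the highest mean, and with the most sites, was Actg1-0610009L18Rik, which holds the start of cytoplasmic gamma-actin. Per 100000 sites it had 29.9 in NELFA, 35.5 in NELFB, 29.1 in NELFCD and 5.33 in NELFE. SPT5 had 8.53 there, and the Integrator libraries had 2.95 (INTS11), 3.55 (INTS9), 0 (INIP), 10.4 (INTS3), 13.3 (NABP1) and 9.07 (NABP2). NELFE thus fell among the Integrator libraries, and the groups overlapped. Its 5.33 is a single site in the shallowest library (18753 sites), so its level here is loosely fixed. None of its 91 sites lay between the starts, over the sequence shown above, while 57 lay on the 0610009L18Rik side.

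Zbtb25-Zbtb1, a pair of BTB zinc finger genes 706 bases apart, had sites in all 11 libraries. Its values per 100000 sites were 23.2, 22.6, 9.69 and 10.7 in NELFA, NELFB, NELFCD and NELFE, 24.4 in SPT5, and 1.04 (INTS3) to 5.89 (INTS11) in the Integrator group. The groups did not overlap. Of its 69 sites, 12 lay between the starts. Leprel4-Fkbp10, whose genes act on collagen in the endoplasmic reticulum, was also widely spaced (878 bases) and had 22 of 56 sites between the starts.

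Mphosph9-2810006K23Rik had 23.2, 12.9, 19.4 and 16.0 sites per 100000 in NELFA, NELFB, NELFCD and NELFE, and 19.5 in SPT5. INTS11, INIP and NABP2 had no site there, INTS9 had 0.507, INTS3 5.19 and NABP1 5.31. The lowest NELF library was above the highest Integrator library. INTS11 and INIP are shallow, where 1 site counts 2.95 and 4.01 per 100000. In NELFA, NELFB and NELFE 1 site counts 3.32, 3.23 and 5.33 per 100000.

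The other 6 of the 10 pairs with the highest means had values of 8.22 to 8.99 per 100000 over the 11 libraries. Srsf7-Ttc39d, the start of a splicing factor, ranged from 5.33 (NELFE) to 32.3 (NELFB) in NELF and from 0 to 5.31 in Integrator. 5031425E22Rik-Mll5, the start of a chromatin regulator, was at 6.64 to 16.1 in NELF, 25.6 in SPT5 and 0 to 6.90 in Integrator. Ddx5-Ccdc45 was at 9.96 to 22.6 in NELF and 0 to 6.23 in Integrator. Rnf5-Agpat1 (3.32 to 26.7 against 0 to 9.34), Mrps18b-Ppp1r10, which joins a mitochondrial ribosomal protein gene to that of a nuclear phosphatase subunit (0 to 29.1 against 2.95 to 6.80), and Mllt11-Cdc42se1 (5.33 to 12.9 against 0 to 5.31) overlapped or nearly touched. In Mllt11-Cdc42se1 SPT5 had 28.0, its highest value among the 10 pairs.

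**Figure D5:**
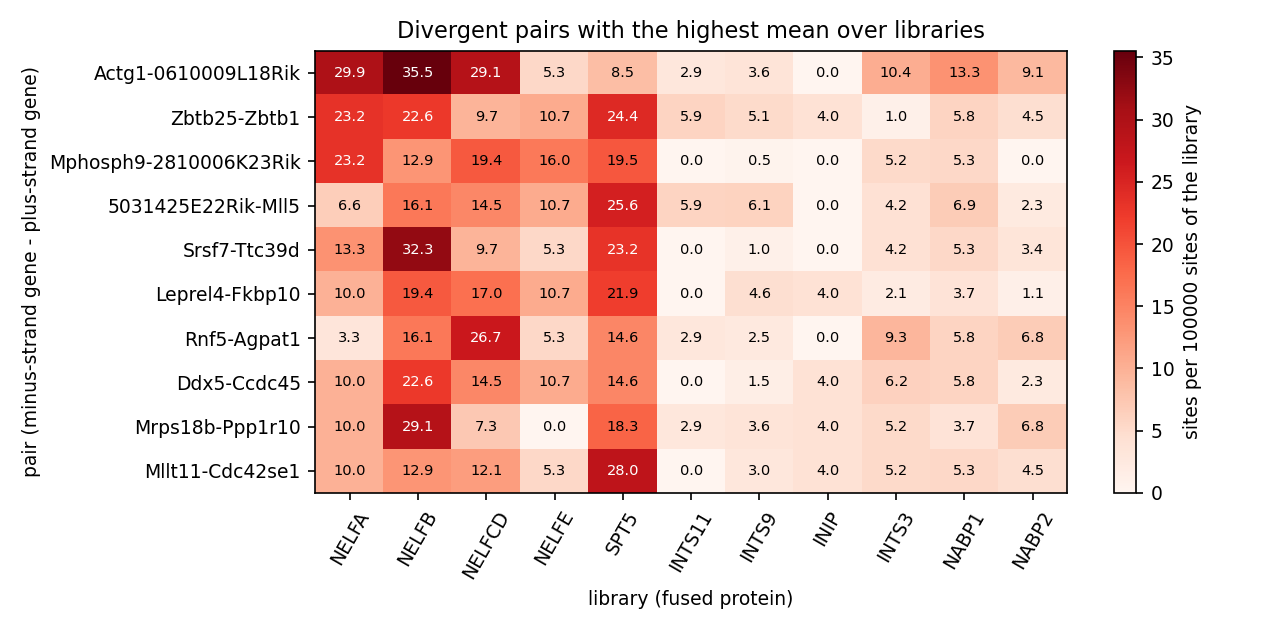
Sites per 100000 sites of the library at the 10 divergent pairs with the highest mean over 11 libraries; rows are pairs, columns are libraries, and darker cells are higher. The NELF and SPT5 columns are darker than the Integrator columns in most rows. In the top row, Actg1-0610009L18Rik, NELFE at 5.33 (a single site) and SPT5 at 8.53 are paler than the other NELF cells.

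Pairs and single starts were compared between NELF and Integrator with limma on log2(sites per 100000 + 1), adjusted by Benjamini-Hochberg over all loci tested. The planned filter of a mean of 10 sites per library left 17 loci, of which 12 were higher in NELF (70.6%), but no divergent pair was among the loci tested. A filter of 5 left 185 loci, 87 of them higher (47.0%), and 4 of 11 pairs. A filter of 2, added after these counts had been seen, left 1648 loci with 188 higher in NELF (11.4%) and 0 lower; at an unadjusted p under 0.05, 465 loci differed, 14 of them lower. Of the 142 pairs tested, 12 were higher (8.45%), a share near that of all loci. The filters used the sites of all libraries, so a locus could pass through the group where it was high. These calls are therefore not independent of the filter. The median log2 difference was 0.85 over the pairs and 0.89 over all loci tested, so a pair's difference is read against a general shift toward NELF at starts.

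The count rested on single libraries. It was 34 loci without NELFB (2 pairs), 44 without NELFCD (2 pairs), 81 without NELFA (6 pairs), 88 without INTS9 (3 pairs) and 340 without NELFE (31 pairs, 1 of them lower in NELF). The 12 pairs below are therefore read by their values, given here or above, beside the calls.

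The pairs higher in NELF joined genes of many kinds. Mphosph9-2810006K23Rik had the highest log2 difference, 3.23 ± 0.69 (SE; limma adjusted p = 0.000871). Slc30a7-Extl2, a zinc transporter gene beside a glycosyltransferase gene, had 6.64, 3.23, 12.1 and 10.7 sites per 100000 in NELFA, NELFB, NELFCD and NELFE and at most 3.18 in an Integrator library, with 4 of those 6 at 0 (log2 difference 2.55 ± 0.80, limma adjusted p = 0.0259). Fam162a-Ccdc58 averaged 7.96 ± 2.69 against 0.816 ± 0.975 (SD), and 2310061C15Rik-Cenpn, the start of a kinetochore protein, 7.03 ± 1.87 against 0.789 ± 1.01. Med22-Rpl7a, a Mediator subunit beside a ribosomal protein, averaged 10.4 ± 7.12 against 1.43 ± 1.60, with 19.5 in SPT5. Lamtor2-Ubqln4 averaged 11.3 ± 4.97 against 1.90 ± 1.22. Tatdn1-Ndufb9, the start of a complex I subunit, averaged 8.06 ± 2.19 against 1.43 ± 1.37, and SPT5 had 1.22 there, below the lowest NELF library. Slc30a7-Extl2 and Tatdn1-Ndufb9 had only 23 sites over all libraries, and Fam162a-Ccdc58 and 2310061C15Rik-Cenpn only 22. These 4 pairs lay near the limit of the filter, and their values rest on few sites.

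The rest were pairs already named by depth. Srsf7-Ttc39d (limma adjusted p = 0.0162), Leprel4-Fkbp10 (limma adjusted p = 0.0220), Ddx5-Ccdc45 (limma adjusted p = 0.0312) and Actg1-0610009L18Rik (limma adjusted p = 0.0318) passed, the last with NELFE below the Integrator mean. Nfya-AI314976, which holds the start of a subunit of the CCAAT-binding factor NF-Y, also passed with 15.005 ± 10.9 against 2.80 ± 2.66 (SD); it had the lowest log2 difference of the pairs with every NELF library above the Integrator mean, 1.97, and is named only to complete the 12. Zbtb25-Zbtb1 passed under the filter of 5 (limma adjusted p = 0.0268) and not under the filter of 2 (limma adjusted p = 0.0661).

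Gene groups differed in how often their starts were divergent. Of 66 DNA repair and replication genes 18 were divergent (27.3%), as were 12 of 43 complex I genes (27.9%), 16 of 77 mitochondrial ribosomal protein genes (20.8%) and 7 of 34 tRNA synthetase genes (20.6%), beside 7.05% of all starts. The share was 14.5% for chaperones (9 of 62), 11.9% for proteasome subunits (5 of 42), 6.85% for cytosolic ribosomal proteins (10 of 146) and 5.12% for zinc finger genes (19 of 371). These are counts of the annotation and do not use the libraries. The DNA repair genes were listed by name, and the other groups matched gene names by pattern, with some chaperones listed by name. A pattern can take in like-named genes outside the group, so the 146 cytosolic ribosomal names may overstate that group.

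Sites of NELF exceeded those of Integrator at most pairs of 7 of the 8 groups, as they did over all pairs. Over all 776 pairs the mean of NELF was the higher one in 528 pairs and that of Integrator in 219. For DNA repair pairs it was NELF in 14 of 17, for mitochondrial ribosomal proteins in 12 of 16, for cytosolic ribosomal proteins in 9 of 10, for tRNA synthetases in 6 of 7, for chaperones in 6 of 9, for proteasome subunits in 4 of 5, for zinc finger genes in 10 of 16 and for complex I in 5 of 12, although the mean over the complex I pairs was 1.87 per 100000 in NELF and 1.13 in Integrator. Differences between the groups of genes were not tested. Cytosolic ribosomal protein pairs had the highest median of the 8 groups, 23 sites per pair beside 11 over all pairs, and a mean of 9.75 per 100000 in SPT5 beside 3.76 over all pairs. Few list members could be tested with the filter of 2: Med22-Rpl7a passed of 5 cytosolic ribosomal pairs and Tatdn1-Ndufb9 of 2 complex I pairs, while 0 passed of 5 mitochondrial ribosomal, 3 chaperone, 2 DNA repair, 1 proteasome and 1 zinc finger pairs by limma.

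List members with the highest mean per 100000 are given as NELF against Integrator means per 100000. In DNA repair these were Wrap53-Trp53 (7.56 against 2.17) and Aimp2-Pms2 (3.801 against 1.41). Mitochondrial ribosomal protein pairs included Eme2-Mrps34, where Integrator was the higher mean (4.56 against 6.40), and Mrpl41-Pnpla7 (8.27 against 2.94). Rnf151-Rps2 (6.30 against 3.37) and Rpl36al-Mgat2 (5.19 against 1.33) followed Med22-Rpl7a among ribosomal proteins. Complex I held Rps28-Ndufa7 (2.24 against 2.65) and Ndufs1-Eef1b2 (4.79 against 1.47). The chaperone pairs were 1700021C14Rik-Cct3 (7.08 against 3.68), Dnajb4-Fubp1 (5.70 against 3.20) and Dnajc2-Psmc2 (4.18 against 0.957), the last also the first proteasome pair, before Ftsj3-Psmc5 (2.85 against 0.358) and Psma7-Ss18l1 (1.94 against 1.13). Zinc finger pairs were AA474408-Zfp143 (5.32 against 1.03), Zfp319-AA960436 (2.65 against 1.79) and Zfp142-Bcs1l (1.82 against 1.46), and tRNA synthetase pairs S100pbp-Yars (2.85 against 0.800) and Orc3-Rars2 (3.35 against 0.519).

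Of 18 textbook divergent pairs, 9 were members by the rule. For 8 of them, the site totals over all libraries were 51 at Gart-Son, a purine synthesis gene beside a splicing gene, 31 at Wrap53-Trp53, 25 at Mrpl40-Hira, 12 at Tsc2-Nthl1, 9 at Atm-Npat, 7 at Brca1-Nbr1, and 6 each at Mcm4-Prkdc and Hadha-Hadhb. The mean at Gart-Son was 13.4 per 100000 for NELF and 2.91 for Integrator, with 0 in NELFE and INIP. The known repair pairs Atm-Npat, Brca1-Nbr1 and Mcm4-Prkdc held too few sites to compare groups. Among the 9 that were not members, 1 had a gene name not found in the annotation, and in 8 the annotated starts overlapped by 21 to 644 bases, so the opposite start lay downstream (Hspd1-Hspe1 and Surf1-Surf2 are examples). Such overlapping starts made up 827 of the other starts (3.99%), and without them the divergent-over-other ratio was 2.05 ± 0.24 (SD, n = 11), a setting added after the data had been seen.

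Some of the fused proteins' own genes start at divergent pairs: Cpsf3l, which encodes INTS11, faces Gltpd1 at 106 bases, Obfc2b (NABP2) faces Rnf41 at 124, Rdbp (NELFE) faces Skiv2l at 181 and Ints9 faces Hmbox1 at 198 bases. Of these, Obfc2b-Rnf41 held 41 sites over all libraries, on average 10.2 per 100000 in NELF and 2.87 in Integrator.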

How the data were processed

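Integration sites of HIV were analysed in 11 libraries. Per the labels' protocols, the junction of LTR and genome was recovered by PCR with a linker and then nested PCR, and both ends were sequenced; the submitters' processing notes name mm9. No source used here names the aligner, the filters or the reads needed per junction. The authors deposited positions rather than counts, fractions or scores: per the file headers, an entry gives the first genomic base after the LTR and a strand. Entries (873534) that shared chromosome, position and strand were merged into 831994 sites, given as 1-based positions. Read names gave instrument and flow cell.

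Gene starts were the first bases of protein-coding genes (GENCODE annotation of the same assembly, chromosomes 1 to 19 and X), and sequence came from the mm9 genome of the reference. A site counted for a window once, by position. Groups were compared with exact permutation tests (210 assignments), libraries with sign flips (2048), and loci with limma 3.58.1 (R 4.3.3; trend and robust; pseudocount 1), run from tables made with Python 3.11.15, numpy 2.4.6, pandas 2.3.3 and scipy 1.17.1. The scripts were tested on simulated data. Pairs named were the 10 with the highest mean of sites per 100000 over the libraries, among called pairs the 10 largest differences each way for which the Integrator mean had all NELF libraries on the same side, textbook pairs, and the 3 members of each list ranked first by that mean; the second part used the added filter of 2. Members and lists were chosen with earlier results of these data known. The replicate numbers are accession order and pair nothing. Sites amplified by PCR are counted once whatever their reads, and intervals cover counting error only. Alternatives were other windows, spacings, start definitions, filters, entries and left-out libraries. Tests of median distance, near-upstream density, gene side, CpG strata and the shared instrument were chosen with the data in view; 2 of the 8 group tests adjusted together are among these. Some items chosen by these rules are not reported here.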

Additional observations from a re-analysis of the deposited data

Results flagged for a closer look

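The ratio of site density between the starts of a pair to that on the gene sides was 1.05 in NELFA, while NELFB, NELFCD and NELFE lay at 0.770, 0.816 and 0.811. The gap from NELFA to the nearest of the other NELF libraries was 0.837 of the group's range, past Dixon's critical value of 0.829 for 4 samples. Chance alone passes about 1 in 20 such groups, and 1 of 38 groups examined did. NELFA held 41 sites between the starts, and the difference between NELF and Integrator in this ratio lost its call without NELFA.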

How the results depend on the processing

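The share near divergent starts, the divergent-over-other ratio over all libraries, the downstream ratio, the upstream share of divergent against other starts and both distance measures kept direction and call under every alternative run. The NELF over Integrator between-start ratio (1.53) was 1.98 with pairs at most 500 bases apart and 1.54 with starts over protein-coding transcripts, without passing; fewer pairs enter the first, and the cause was not tested in the second. Ratios or differences that had no call changed sign: NELF over Integrator for the divergent-over-other ratio was 0.964 with pairs at most 500 bases apart and 0.956 for CpG-rich starts; for the downstream ratio it was 1.02 with protein-coding transcripts, 1.03 with SPT5 counted as NELF and 1.02 without overlapping starts; for the upstream share at other starts the difference was -0.269 points with SPT5 and -1.15 on the shared instrument. The cause was not tested.

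Leaving out each library in turn gave, for NELF against Integrator, 0.818 to 1.22 points for the share, 0.973 to 1.05 for the density ratio, 0.960 to 1.05 for the downstream ratio, 3.06 to 3.81 points for the upstream share at divergent and -0.332 to 1.32 at other starts, 1.42 to 1.62 for the between-start ratio, -418 to -334 bases for the median distance and 1.09 to 1.38 for the near-upstream ratio at other starts. Over all libraries the density ratio was 1.95 to 2.03.

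Counts of called loci were 87 with a mean of at least 5 sites and 7 without a filter, beside 12, and 6 to 14 with a library left out. With the added filter of 2 the 188 became 365 with a pseudocount of 5, 118 without trend and robust settings, 338 with SPT5 counted as NELF, and 34 to 340 with a library left out. Windows of 1 kb with a mean of at least 10 sites left no locus, so that alternative gave no value. Of 140 recomputed values of the 10 pairs with the highest means, 0 moved by more than the spread between libraries. No paired analysis was possible because replicate numbers are only accession order and each library is another protein. Depth limits what single pairs can show: the median pair held 11 sites over all libraries.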
